A study of Mus musculus with 3 samples.

Results

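The genes examined encode the subunits of the respiratory chain that are made from nuclear DNA. They were taken by name from the deposited transcript annotation. Names starting with Ndufa, Ndufb, Ndufc, Ndufs, Ndufv, Uqcr or Atp5 were taken, together with Sdha to Sdhd, Cyc1, Cox5a, Cox5b, Cox6c, Cox7b and Cox7c, and the Ndufaf names of assembly factors were left out. This gave 73 of the 48626 loci in the expression table, namely 38 genes of complex I, 4 of complex II, 9 of complex III, 5 of complex IV and 17 of complex V. None of these loci was joined with another named gene. The rule uses names and no measured value. Some names follow an older view of the chain. Ndufa4 is filed here under complex I although its product is now placed in complex IV, Ndufa4l2 encodes a relative of that protein, and Atp5s and Atp5sl are not subunits of ATP synthase.

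The study sequenced total RNA of the heart ventricle of C57BL/6 mice (C57BL/6 J in the methods of the study) at the embryonic days labelled E10.5 and E13.5 and at the age of 8 weeks (Adult), to find non-coding RNAs of heart development. Each stage had 1 paired-end library, made with a stranded total RNA kit, and the labels name no treatment or altered allele. How many hearts went into a library is not given in the sources used here. Without replicates no difference between stages could be tested, and every level given here comes from 1 library.

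The respiratory chain sits in the inner mitochondrial membrane. Complex I takes electrons from NADH and complex II takes them from succinate, complex III passes them to cytochrome c, and complex IV hands them to oxygen. The protons pumped by complexes I, III and IV drive ATP synthase, which is also called complex V. Heart muscle is among the tissues richest in mitochondria, and the working myocardium of the adult obtains most of its ATP from this chain. Mammalian complexes I, III, IV and V also hold subunits made from mitochondrial DNA, so both genomes contribute to them.

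Levels are in FPKM, the number of fragments scaled to exon length and library size, so that levels of different genes can be set side by side. A difference between stages is the difference of log2(FPKM + 1), on which 1 is close to a doubling for well expressed genes. The reference throughout is the set of 12569 loci that match a protein-coding RefSeq transcript and reach 1 FPKM in at least 1 library (mRNA loci). The deposited scaling leaves a shift between the libraries. The median mRNA locus differed by -0.40 between E10.5 and the adult, by -0.50 between E13.5 and the adult, and by 0.17 between E10.5 and E13.5. Differences are therefore also given relative to these medians. From the smallest steps of the values, 1 FPKM over 1 kb corresponds to about 13.8, 26.7 and 13.8 fragments in the E10.5, E13.5 and adult libraries. The median subunit gene then rests on about 1466, 4301 and 3333 fragments, so that counting error is small for most of them, while Ndufa4l2 at E10.5 rests on about 15.2 fragments.

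The subunit genes were higher in the adult ventricle than in either embryonic library. Their median level was 141 FPKM in the E10.5 library, 213 in the E13.5 library and 334 in the adult library, while the median mRNA locus was at 9.92, 10.3 and 6.94 FPKM. At E10.5, 53 of the 73 genes reached 100 FPKM, and 58 did so in each later library. Together they made up 4.20%, 5.01% and 9.33% of the summed FPKM of all mRNA loci in the same order. Ventricle is a mixed tissue, and more cells rich in these transcripts cannot be told apart from more transcript per cell in such libraries.

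Between E10.5 and the adult, 67 of the 73 genes were higher in the adult by any amount, against 35.3% of the mRNA loci. A difference of at least 1 was reached by 39 genes in the upward direction, where 14.8% of the mRNA loci did so, and by 0 genes in the downward direction, where 27.3% did. The median difference was 1.11, or 1.51 relative to the median mRNA locus, and relative to that median 54 genes were higher by at least 1 (20.9% of the mRNA loci). A difference of at least 2 was reached by 5 genes (5.59% of the mRNA loci), namely Ndufa12, Ndufa4l2, Ndufa3, Cox6c and Ndufa1. The remaining 6 genes, Uqcr10, Atp5d, Ndufb6, Uqcrq, Atp5sl and Atp5g2, were slightly lower with the deposited scaling, with differences from -0.19 to -0.03. All 73 genes lay above the median mRNA locus, and all 73 were higher in the adult after rescaling with median-of-ratios factors. After rescaling to 1 sum over the mRNA loci, 68 were higher. 

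The complexes ordered differently by level and by difference. Complex V had the highest median at E10.5, 219 FPKM, followed by complex III at 198, complex II at 170.0, complex IV at 151 and complex I at 126. In the adult, the medians of complexes I, III and V lay close together, at 323, 354 and 335 FPKM, with complex II at 394 and complex IV at 281. That of complex V rests on the names taken, since it was 466 FPKM without Atp5s and Atp5sl, while that of complex I was 323 FPKM without Ndufa4 and Ndufa4l2 as well. That of complex IV rests on few genes, of which Cox5b and Cox7c have most of their sequence elsewhere in the genome too. With only genes that share under 20% of their sequence, which leaves Cox5a and Cox7b in complex IV, it was 384 FPKM. Those of complexes I, II, III and V were then 355, 394, 337 and 335 FPKM, so the order in the adult depends on this choice. Complex I had the largest median difference between E10.5 and the adult, 1.36, and complex V the smallest, 0.66. Complexes II, IV and III lay between them at 1.14, 0.97 and 0.80. A difference of at least 1 was reached by 25 of 38 genes of complex I, 3 of 4 of complex II, 4 of 9 of complex III, 2 of 5 of complex IV and 5 of 17 of complex V. Within complexes I and V the single genes spread from -0.06 to 3.16 and from -0.10 to 1.75, so the complexes overlapped widely.

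**Figure D1:**
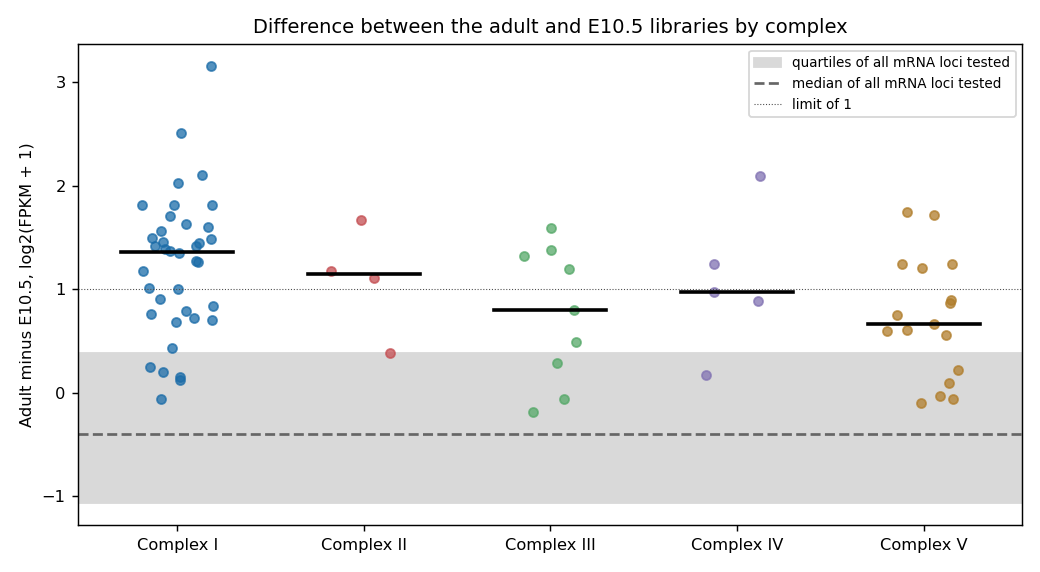
Difference between the adult and E10.5 libraries, in log2(FPKM + 1), with 1 point per gene and a black bar at the median of each complex; points are spread sideways only for legibility. The grey band spans the quartiles of the 12569 mRNA loci (-1.07 to 0.38) and the dashed line is their median. The medians of all 5 complexes, from 0.66 to 1.36, lie above the band.

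The 2 intervals contributed unequally from gene to gene. Between E10.5 and E13.5, 70 of 73 genes were higher at E13.5 by any amount, against 62.9% of the mRNA loci, with a median of 0.58, and 7 were higher by at least 1 (5.89% of the mRNA loci), or 3 relative to the median mRNA locus (3.95%). Between E13.5 and the adult, 57 were higher in the adult (33.0% of the mRNA loci), with a median of 0.60, and 9 were higher by at least 1 (13.0%). How the difference divides over the intervals depends on the scaling. Relative to the median mRNA locus, 42 of 73 genes were higher by at least 1 in the second interval (21.4% of the mRNA loci), and with median-of-ratios factors 41 were. The interval medians, alike with the deposited scaling, were 0.43 and 1.13 with median-of-ratios factors, 0.27 and 0.94 with libraries brought to 1 sum, and 0.41 and 1.10 relative to the median mRNA locus. In the first interval 66 genes were higher and 7 lower with median-of-ratios factors, and 60 were higher and 13 lower with libraries brought to 1 sum. No gene was lower by at least 1 in either interval with the deposited scaling, where 4.85% and 32.1% of the mRNA loci were. With the deposited scaling, 54 genes were higher at each successive stage, against 16.2% of the mRNA loci.

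The highest level was at E13.5 for 16 genes, a pattern held by 46.7% of the mRNA loci. These were Ndufa2, Ndufa7, Ndufab1, Ndufb6, Ndufb7, Ndufb11 and Ndufc2 of complex I, Sdhd of complex II, Uqcr10 and Uqcr11 of complex III, and Atp5d, Atp5e, Atp5g2, Atp5g3, Atp5k and Atp5sl of complex V. With median-of-ratios factors, only Ndufb6, Ndufc2, Uqcr10 and Atp5sl among the 73 genes stayed higher at E13.5 than in the adult.

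**Figure D2:**
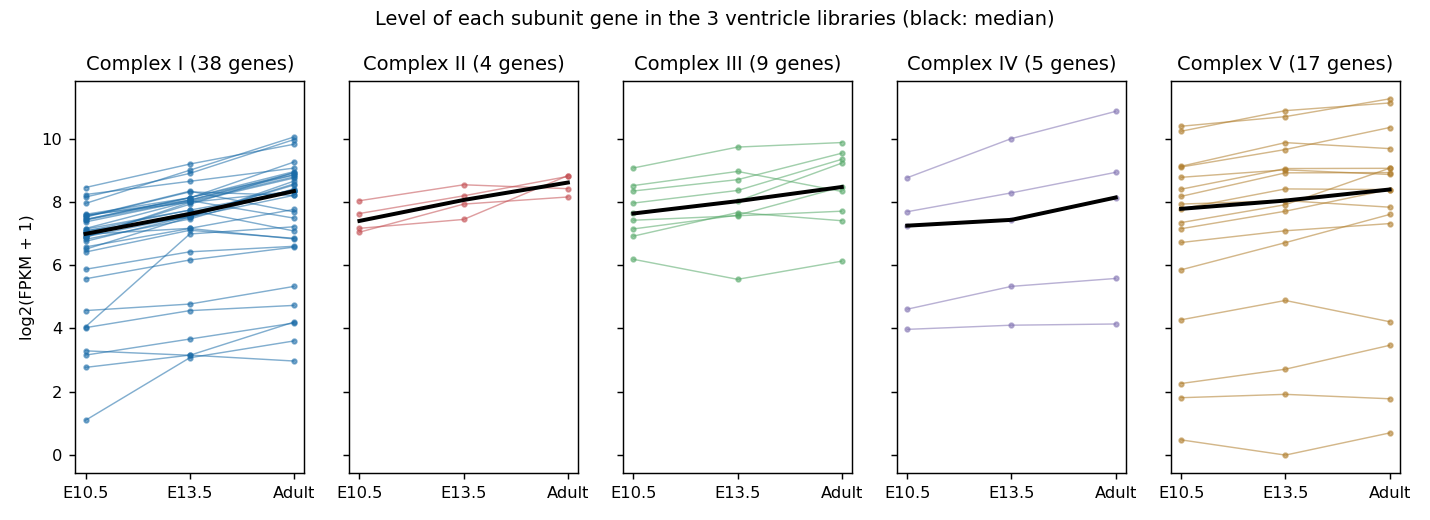
Level of each of the 73 genes, in log2(FPKM + 1), in the 3 libraries, with 1 panel per complex, a thin line per gene and a thick black line through the medians. The medians climb from E10.5 to the adult in every panel, while a few genes of complexes I, IV and V run far below the others.

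Complex I is the largest complex of the chain and holds a matrix arm, which takes up the electrons of NADH, and a membrane arm, which pumps protons. The 7 nuclear core subunits carry the flavin and the iron-sulfur clusters or line the quinone site in the matrix arm. All 7 were higher in the adult than at E10.5, with a median of 1.26 and a range of 0.70 to 1.60. The 29 accessory subunits had a median of 1.35, with 18 higher by at least 1. The 16 genes of the matrix arm and the 19 genes of the membrane arm had medians of 1.31 and 1.39, and 12 and 11 of them were higher by at least 1.

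Among the core genes, Ndufv1, whose product binds NADH and the flavin, was at 112 (E10.5), 175 (E13.5) and 340.2 FPKM (adult), the largest difference of the group (1.60). Ndufs1, which encodes the largest core subunit, was at 135, 181 and 403 FPKM in the same order. Most of its difference of 1.56 lay between E13.5 and the adult. Ndufs7, which carries the last iron-sulfur cluster before quinone, was at 134 (E10.5), 213 (E13.5) and 323 FPKM (adult). Ndufv2, the partner of Ndufv1 in the NADH module, was at 189.7, 253 and 431 FPKM. Ndufs8, another iron-sulfur subunit, was at 125, 142 and 216 FPKM, with a smaller difference of 0.79. Ndufs3 stood well below the other core genes in all 3 libraries. Its level was 15.3 (E10.5), 22.7 (E13.5) and 25.5 FPKM (adult), although the core subunits are present in equal numbers in the complex, and 61.9% of its transcript sequence is also found elsewhere in the genome, as described further on.

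Outside the core, the largest differences belonged to Ndufa12, Ndufa4l2 and Ndufa3. Ndufa12, a subunit of the matrix arm at chr10:94198204-94220948, was at 15.6 (E10.5), 126 (E13.5) and 147 FPKM (adult). Its difference of 3.16 came almost wholly from the first interval, 2.93 against 0.23 for the second, and 63.2% of its sequence also stands at another place in the genome. Ndufa4l2, known as a gene switched on in low oxygen, was at 1.14 (E10.5), 7.43 (E13.5) and 11.2 FPKM (adult), far under its relative Ndufa4 at 349.9, 585 and 904 FPKM. Ndufa3, a short membrane arm subunit, was at 246 (E10.5), 511 (E13.5) and 1059.7 FPKM (adult). It was higher by 1.05 in each interval and was the highest complex I gene in the adult. Ndufa1, a membrane arm subunit encoded on the X chromosome, was the only other complex I gene with a difference above 2, at 118, 242 and 485 FPKM. 

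At the other end stood Ndufb6, Ndufa7 and Ndufc2, with differences of -0.06, 0.12 and 0.15. Ndufb6, in the membrane arm, was at 140.1 (E10.5), 213 (E13.5) and 134 FPKM (adult). Ndufa7, in the matrix arm, was at 164, 262 and 179 FPKM, and Ndufc2, in the membrane arm, at 184, 323 and 204 FPKM. All 3 were highest at E13.5, and between E13.5 and the adult they differed by -0.66, -0.55 and -0.66. Relative to the median mRNA locus, which itself differed by -0.50, these values became -0.16, -0.05 and -0.15. All other genes outside the core, Ndufa4 among them, had differences between 0.20 and 2.03.

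Complex II, succinate dehydrogenase, is the only complex with all of its subunits encoded in the nucleus. Sdha, the flavoprotein that oxidizes succinate, was at 142 (E10.5), 173 (E13.5) and 454 FPKM (adult). Its difference of 1.38 between E13.5 and the adult was the largest of all 73 genes for that interval. Sdhb, the iron-sulfur subunit, was at 197, 291 and 446 FPKM. The membrane anchors behaved differently from each other. Sdhc was at 131 (E10.5), 243 (E13.5) and 284 FPKM (adult), with a difference of 0.89 in the first interval and 0.23 in the second. Sdhd was at 262 (E10.5), 371 (E13.5) and 341 FPKM (adult) and differed by -0.12 in the second interval, a sign that turned positive relative to the median mRNA locus. At E10.5 the highest of the 4 genes, Sdhd, stood at 2 times the level of the lowest, Sdhc, and in the adult the catalytic subunits Sdha and Sdhb stood above both anchors.

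In complex III, the genes of the large core proteins and of the catalytic iron-sulfur subunit were higher in the adult, while Uqcr10 and Uqcrq were not. Uqcrc1 and Uqcrc2, the core proteins, were at 248, 328 and 649 FPKM and at 324, 416 and 742 FPKM in the order E10.5, E13.5 and adult. Uqcrfs1, the Rieske iron-sulfur protein, was at 141 (E10.5), 190.4 (E13.5) and 354 FPKM (adult). These 3 genes differed by 1.38, 1.19 and 1.33 between E10.5 and the adult. Cyc1, which encodes cytochrome c1, the other nuclear redox subunit, was nearly level, at 170.3 (E10.5), 188 (E13.5) and 208 FPKM (adult).

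Uqcrb, which helps to form the quinone pocket, was at 198 (E10.5), 259 (E13.5) and 597 FPKM (adult) and had the largest difference of complex III (1.59). Uqcrh, the acidic hinge protein near cytochrome c1, was the highest gene of the complex in each library, at 537, 849 and 938 FPKM. The small subunit genes Uqcr10 and Uqcr11 peaked at E13.5. Uqcr10 was at 365 (E10.5), 498 (E13.5) and 321 FPKM (adult), and Uqcr11 at 119.9, 202 and 169 FPKM. Uqcrq, another small subunit, was the lowest gene of complex III and showed a dip instead of a peak, at 71.8 (E10.5), 46.0 (E13.5) and 68.9 FPKM (adult). With Ndufb4 and Atp5l, it was 1 of 3 genes that were lower at E13.5 than at E10.5 with the deposited scaling. With median-of-ratios factors Atp5d, Atp5g2, Cox7c and Cyc1 joined them.

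Of complex IV, cytochrome c oxidase, 5 nuclear subunit genes fell under the naming rule. Its other nuclear subunit genes did not, among them Cox4i1, Cox6b1 and all isoforms of Cox6a, Cox7a and Cox8. The medians of complex IV therefore describe only a part of its nuclear subunits. All 5 genes taken were higher at each successive stage with the deposited scaling. However, Cox7c was lower at E13.5 than at E10.5 with median-of-ratios factors, and Cox5a and Cox7c were with libraries brought to 1 sum. Cox6c was at 434 (E10.5), 1024 (E13.5) and 1858 FPKM (adult) and had the largest difference of the complex (2.10). Cox7b was at 205, 311 and 488 FPKM, and Cox5a, which encodes a matrix-side subunit, at 151, 172 and 281 FPKM. Cox5b and Cox7c were far lower than these. Cox5b, a zinc-binding matrix-side subunit, was at 23.4 (E10.5), 39.3 (E13.5) and 46.9 FPKM (adult). Cox7c was at 14.7 (E10.5), 16.2 (E13.5) and 16.7 FPKM (adult). Both share most of their sequence with other places in the genome.

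**Figure D3:**
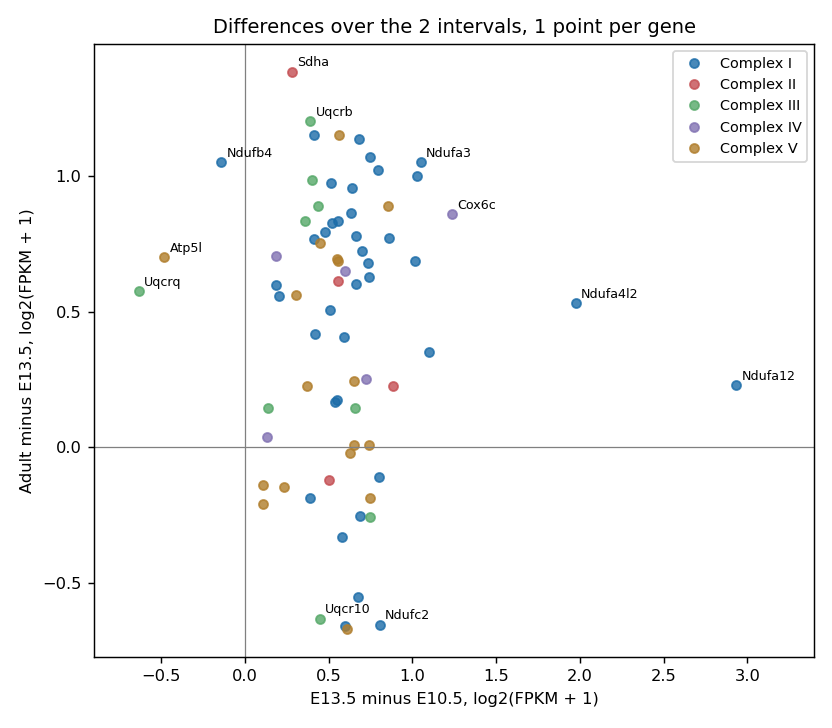
Difference between E13.5 and E10.5 (horizontal) against the difference between the adult and E13.5 (vertical), both in log2(FPKM + 1), with 1 point per gene coloured by complex; both axes share the E13.5 library. With the deposited scaling, most of the 73 points lie in the upper right part, 16 lie below the horizontal line, and Ndufa12 and Ndufa4l2 stand far to the right.

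ATP synthase consists of the catalytic F1 head, a stalk and the membrane part with the ring of subunit c. Atp5a1 and Atp5b, the alpha and beta subunits of the head, were the highest genes of all 73 in each library. They were at 1341, 1656 and 2445 FPKM and at 1202, 1888 and 2233 FPKM in the 3 libraries, and no other gene of the 73 was above 1000 FPKM at E10.5. Atp5c1, the gamma subunit that turns inside the head, was at 549 (E10.5), 805 (E13.5) and 1303 FPKM (adult). Alpha and beta occur in more copies per complex than the other head subunits, and their genes had the most transcript in each library. The delta and epsilon subunits of the central stalk, encoded by Atp5d and Atp5e, were at 243, 263 and 227 FPKM and at 219, 339 and 334 FPKM. Atp5d was 1 of the genes that were not higher in the adult. The median difference of the 5 F1 genes was 0.87, and that of the 10 stalk and membrane genes was 0.63.

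Atp5o, which joins the head to the peripheral stalk, was at 288 (E10.5), 483 (E13.5) and 485 FPKM (adult), with almost all of its difference in the first interval. Among the other genes, Atp5h, Atp5j and Atp5s had the largest differences. Atp5h, a peripheral stalk subunit, was at 56.9, 104 and 193 FPKM, and Atp5j, another stalk subunit, at 141, 208 and 335 FPKM. Atp5s, a factor that is not part of the enzyme, was at 3.80, 5.56 and 10.1 FPKM. The smallest differences belonged to Atp5sl, Atp5l and Atp5k. Atp5sl, which is also not a subunit, was at 18.4, 28.6 and 17.6 FPKM. Atp5k, the membrane subunit e, was at 558 (E10.5), 937 (E13.5) and 821 FPKM (adult). Atp5l, the membrane subunit g, was at 0.396, 0.00 and 0.624 FPKM, the lowest of all 73 genes and the only one that did not reach 1 FPKM in any library.

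Subunit c of the rotor ring is encoded by 3 genes, Atp5g1, Atp5g2 and Atp5g3, which differ in the presequence that directs the protein to mitochondria and yield the same mature protein. Atp5g3 was at 438 (E10.5), 516 (E13.5) and 466 FPKM (adult). Atp5g1 was at 162 (E10.5), 239.8 (E13.5) and 534 FPKM (adult), and Atp5g2 at 2.51, 2.78 and 2.43 FPKM. The makeup of the summed FPKM of the 3 genes therefore shifted. Atp5g1 held 26.9% of it at first, 31.6% at E13.5 and 53.3% in the adult library, while Atp5g3 held 72.7%, 68.0% and 46.4%. Atp5g2 held under 1% in each library. Of the Atp5g1 transcript, 92.4% stands elsewhere in the genome too, and for Atp5g2 this is 100%, against 0.5% for Atp5g3. The Atp5g1 level therefore depends on how fragments were shared out among copies, and its share is uncertain for that reason.

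The low genes prompted a comparison of their transcripts with the rest of the genome. Each RefSeq transcript was cut into all overlapping words of 32 bases, and words also found outside the gene were counted on both strands of GRCm38.p6. Of the 73 genes, 25 shared at least 20% of their words with other places, 13 shared at least 50%, and 24 shared none. At E10.5, 14 genes were under 50 FPKM, and 9 of these were among the 13 that share at least 50% of their words. In the E13.5 and adult libraries this was 8 of 13 and 8 of 12. Low genes with little shared sequence were Atp5s, Atp5sl, Ndufa11 and Ndufa4l2 in all 3 libraries, Ndufs4 at E10.5 and Uqcrq at E13.5. Across the 73 genes the rank correlation of shared sequence with level was weak, at -0.23, -0.20 and -0.23 in the 3 libraries.

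**Figure D4:**
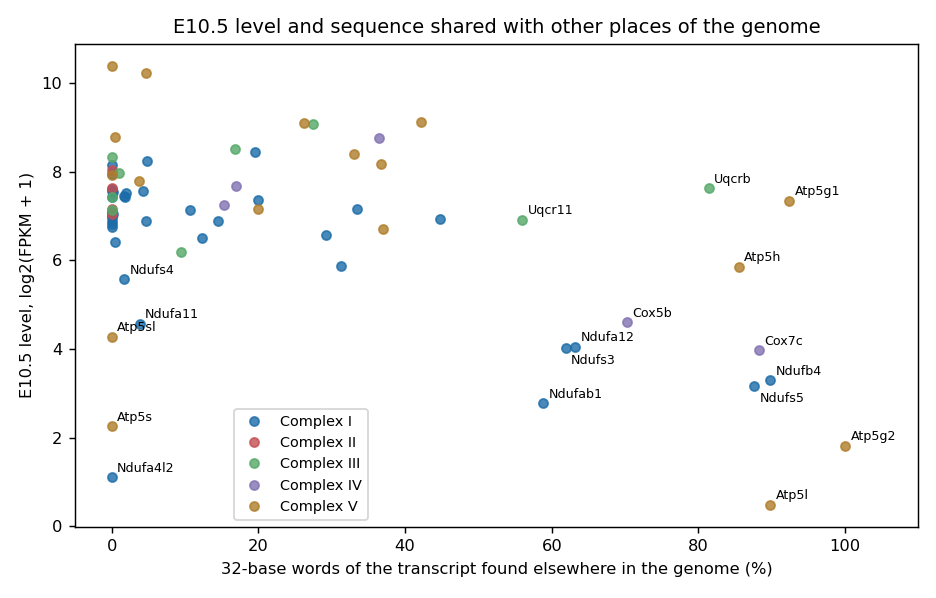
Share of the 32-base words of each transcript that also occur elsewhere in the genome, in percent (horizontal), against the E10.5 level in log2(FPKM + 1) (vertical), with 1 point per gene coloured by complex. Genes under 50 FPKM, and those with at least 50% of shared words, are named. The genes with more than 50% of shared words lie mostly under the bulk of the others.

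At the places that share sequence, the deposited table holds loci of its own for 10 genes with a copy of over 30% of the words and 10 FPKM or more. None of the 10 carries the name of the subunit gene, 9 are unnamed, and 9 consist of 1 exon. In 7 of the 10 cases the locus at the copy was higher than the gene itself in all 3 libraries. The 7 genes were Atp5l, Atp5f1, Atp5h, Cox5b, Ndufs5, Ndufs3 and Ndufab1. For Atp5l, the unnamed locus at chr5:24581503-24581906 was at 443, 568 and 954 FPKM in the order E10.5, E13.5 and adult, where the gene was under 1 FPKM. Added together, gene and copy give 443, 568 and 955 FPKM. Such sums join loci of different length and are not the level of either, and from which of them the fragments came was not tested.

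The other pairs followed the same form. For Cox5b, the locus at chr13:21500924-21501671 was at 231, 401 and 445 FPKM, and gene and copy added to 254, 440.3 and 492 FPKM. For Ndufs5, a membrane arm subunit of complex I at 7.93, 11.7 and 17.0 FPKM, the locus named BC002163 at chr16:42955580-42956079 was at 77.4, 154 and 269 FPKM. Ndufs3, the low core gene, had a locus at chr11:58392691-58393532 with 70.3, 103 and 133 FPKM. Ndufs3 and this locus added to 85.6, 126 and 159 FPKM. For Atp5f1, the peripheral stalk subunit b at 104, 135 and 158 FPKM, the locus at chr11:55118111-55118796 was at 362, 474 and 740.1 FPKM. For Atp5h, the locus at chr15:5120587-5121282 was at 179, 321 and 599 FPKM, and its difference between E10.5 and the adult, 1.74, matched the 1.75 of the gene. Cox5b and its copy were also close, at 0.97 and 0.94. For Ndufs5, Atp5f1, Atp5l, Ndufab1 and Ndufs3 the difference was larger at the copy. These copies differed by 1.78, 1.03, 1.11, 0.65 and 0.91, and their genes by 1.01, 0.60, 0.22, 0.20 and 0.70. Ndufab1, the acyl carrier protein, was at 5.83, 7.93 and 6.85 FPKM, with 33.0, 37.3 and 52.3 FPKM at chr7:139659287-139660161.

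Cox6c and Atp5o were higher than the locus at their copy in all 3 libraries, and Atp5g1 was higher in the E13.5 and adult libraries only. The copy of Atp5g1 at chr11:100360986-100362409 was at 182, 224 and 486 FPKM. The copy of Cox6c was at 53.6, 54.9 and 131 FPKM. The copy of Atp5o at chr12:84258137-84258933 was at 157, 127 and 139 FPKM, the only 1 of the 10 with a lower adult value than E10.5 value. Some low genes had copies with no locus in the table. This held for Ndufb4, a membrane arm subunit at 8.81, 7.90 and 17.4 FPKM, with 89.4% and 88.2% of its words on chromosomes 15 and 19, and for Atp5g2, with 100% on chromosome 17 and 99.7% on chromosome 7. Ndufa12 shares its 63.2% with a place on chromosome 5 that also has no locus. Cox7c has a copy with 88.3% of its words on chromosome 11 without a locus, and the annotated Gm10012, with 57.7%, was at 1.48 FPKM or less.

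**Figure D5:**
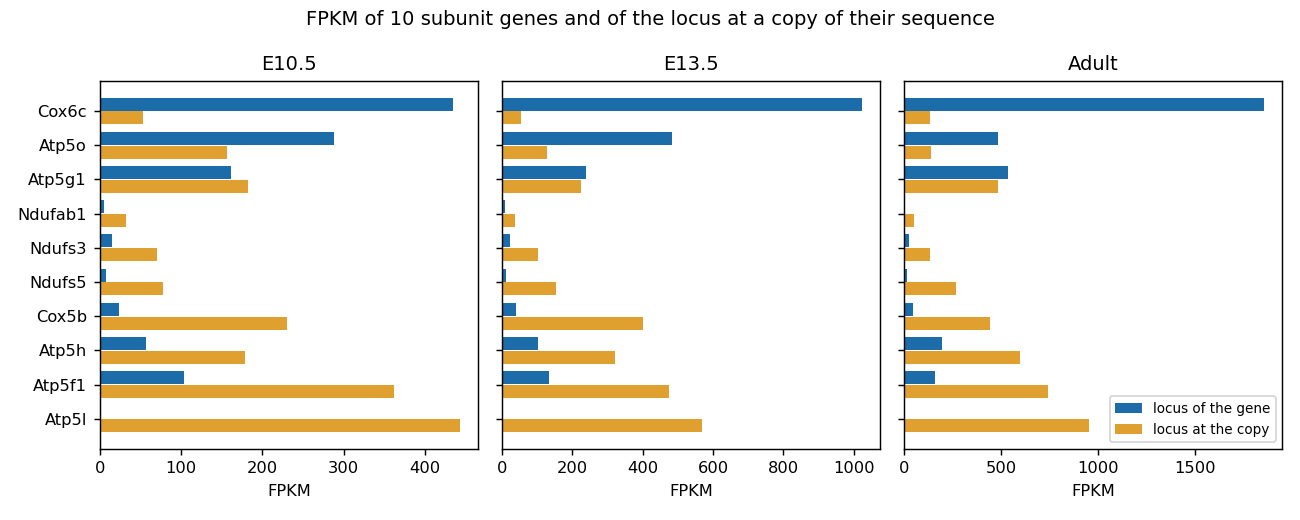
FPKM of 10 subunit genes (blue) and of the locus at the copy of their sequence (orange) in the 3 libraries, with a linear axis of its own for each panel that starts at 0. The orange bar is the longer one in every library for Atp5l, Atp5f1, Atp5h, Cox5b, Ndufs5, Ndufs3 and Ndufab1.

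The sequences over a splice junction show such copies where they match best. For 3 genes, the 60 bases centred on the junction of a pair of exons were read from GRCm38.p6 in the sense of the transcript, and the same stretch was read at the copy. The junction taken was the one within the coding sequence with the fewest mismatches to the copy. Capitals mark the last 2 bases of the left exon and the first 2 bases of the right exon. In the gene an intron lies between the capitals, while at the copy the 60 bases run on without a gap. Each copy had 0 mismatches to its gene over these 60 bases, which were picked for the closest match. Over the whole transcript, the copies hold 85.5% (Atp5l), 64.7% (Cox5b) and 87.6% (Ndufs5) of the 32-base words.
Atp5l, exons 1 and 2, chromosome 9, minus strand: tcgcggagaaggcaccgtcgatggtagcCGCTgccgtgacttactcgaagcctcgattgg
Copy at chr5:24581781-24581840, minus strand: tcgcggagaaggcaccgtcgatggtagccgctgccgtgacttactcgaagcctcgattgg
Cox5b, exons 2 and 3, chromosome 1, plus strand: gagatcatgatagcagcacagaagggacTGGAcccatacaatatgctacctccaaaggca
Copy at chr13:21501212-21501271, minus strand: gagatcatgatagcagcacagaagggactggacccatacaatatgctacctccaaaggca
Ndufs5, exons 2 and 3, chromosome 4, minus strand: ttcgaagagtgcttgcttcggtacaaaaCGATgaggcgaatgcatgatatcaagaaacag
Copy at chr16:42955817-42955876, plus strand: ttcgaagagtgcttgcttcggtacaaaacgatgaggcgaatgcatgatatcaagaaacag

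Over these 60 bases a read fits the spliced gene and the unspliced copy equally well, and from which of them the reads came was not tested. The levels of the 13 genes with at least 50% of shared words are uncertain to this extent. The doubt is not confined to them, since Atp5f1, Atp5o, Cox6c and Ndufb11 lie under 50% and also had expressed loci at their copies. The copy of Ndufb11, with 27.3% of its words, fell below the share set for the pairs above. It was at 46.1 (E10.5), 75.4 (E13.5) and 95.2 FPKM (adult), and Ndufb11 at 94.5, 142 and 113 FPKM. At E10.5, Atp5f1 was at 104 FPKM and its copy at 362 FPKM. Atp5o and its copy were at 288 and 157 FPKM, and Cox6c and its copy at 434 and 53.6 FPKM. Genes with shared sequence had smaller median differences. Among the 48 genes with under 20% of shared words, the median difference between E10.5 and the adult was 1.22, and 30 of the 48 were higher by at least 1. Among the 25 genes with 20% or more, the median was 0.75, and 9 of the 25 were higher by at least 1. Between E13.5 and the adult the medians were 0.64 and 0.23. Transcripts measured 292 to 2859 bases. The 30 genes at or under 600 bases had a median difference between E10.5 and the adult of 0.94, with 14 higher by at least 1, and the 43 longer genes had 1.18, with 25 higher by at least 1. The rank correlation of length with the difference was 0.11 over the 73 genes.

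Promoter sequences were examined because most of the genes moved in the same direction. Nuclear genes of the respiratory chain are known targets of NRF1, of ETS family factors such as GABP, of YY1 and of the estrogen-related receptors (ERR). RefSeq promoter windows of GRCm38.p6, from 250 bases before to 50 bases after the start, were at hand for 61 of the 73 genes, some of them with more than 1 window, and a gene was counted once if any of its windows held the letters. The letters AAGATGGC, a core of YY1 sites, stood on either strand in 11 of the 61 genes (18.0%), against 3.57% of 17492 protein-coding genes. The letters GCGCATGCG of NRF1 stood in 7 genes (11.5% against 2.61%), CCGGAAGT of ETS factors in 4 (6.56% against 5.69%), and TNAAGGTCA of ERR in 3 (4.92% against 1.19%). The NRF1 letters overlap themselves on the other strand, and Uqcr11 was the only gene with more than 1 of these 4 motifs.

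The YY1 letters were held by Ndufa3, Ndufa9, Ndufb8, Ndufc1, Ndufs4, Ndufs6 and Ndufs7 of complex I and by Atp5f1, Atp5j, Atp5j2 and Atp5sl of complex V. In 9 of these genes they lay on the strand of the gene after the start, with the first letter between positions 23 and 39, which is 14.8% of the genes, and 1.48% of all genes held them on that strand at any position after the start. Genes with and without the YY1 letters had like median differences between E10.5 and the adult, 1.00 and 0.99. For the other motifs the median with the letters was lower than without them, 0.56 against 1.09 for the 7 genes with the NRF1 letters, 0.75 against 1.01 for the 4 with the ETS letters and 0.38 against 1.09 for the 3 with the ERR letters, too few genes to read an order from. The NRF1 letters were held by Ndufa11, Ndufa8, Uqcr11, Uqcrc1, Atp5g2, Atp5k and Atp5l, the ETS letters by Ndufs3, Uqcr11, Uqcrh and Atp5h, and the ERR letters by Ndufb4, Sdhd and Atp5g3. These matches describe letters and not bound sites. The YY1 letters AAGATGGC also contain ATG, the letters of a start codon. Whether they mark the start of translation in the 9 genes that hold them after the start was not tested. As examples, 3 windows are given 5′ to 3′ on the strand of the gene with the motif in capitals, namely AAGATGGC at position 23 of Ndufa3, the gene with the highest adult level in complex I, the same letters at position 25 of the core gene Ndufs7, and GCGCATGCG at position 31 of the complex III core gene Uqcrc1, where a match on each strand overlaps.
Ndufa3, chr7:3617123-3617422, plus strand: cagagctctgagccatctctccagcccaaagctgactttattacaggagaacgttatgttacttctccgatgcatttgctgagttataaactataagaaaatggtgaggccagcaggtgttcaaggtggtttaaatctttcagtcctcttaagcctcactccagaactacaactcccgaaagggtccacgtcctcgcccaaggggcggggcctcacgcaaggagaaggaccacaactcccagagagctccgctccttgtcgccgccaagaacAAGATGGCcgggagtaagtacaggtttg
Ndufs7, chr10:80249199-80249498, plus strand: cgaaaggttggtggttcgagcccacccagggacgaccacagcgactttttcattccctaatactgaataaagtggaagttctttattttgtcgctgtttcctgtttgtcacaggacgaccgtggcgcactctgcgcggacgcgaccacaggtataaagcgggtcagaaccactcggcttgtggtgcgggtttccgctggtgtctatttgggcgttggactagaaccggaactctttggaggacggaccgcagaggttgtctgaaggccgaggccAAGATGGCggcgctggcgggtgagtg
Uqcrc1, chr9:108936398-108936697, plus strand: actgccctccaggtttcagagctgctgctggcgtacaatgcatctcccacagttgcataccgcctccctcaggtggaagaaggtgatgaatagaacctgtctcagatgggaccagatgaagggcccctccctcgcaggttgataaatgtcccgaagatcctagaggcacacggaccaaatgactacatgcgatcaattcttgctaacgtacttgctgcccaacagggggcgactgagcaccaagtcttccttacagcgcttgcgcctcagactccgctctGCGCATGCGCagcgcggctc

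Some subunit genes start next to a gene on the opposite strand. With a limit of 1000 bases between the starts, 22 of the 73 (30.1%) had such a neighbour among the expressed mRNA loci, against 10.8% of all 12569 mRNA loci. From E10.5 to the adult, the subunit gene was higher and the neighbour lower in 14 of the 22 pairs, and both were higher in 7. Of the neighbours, 8 of 22 (36.4%) were higher in the adult, close to the 35.3% of all mRNA loci. The median difference was 1.36 for the subunit genes and -0.16 for the neighbours, which lies above the -0.40 of all mRNA loci. Ndufs1 and Eef1b2, a translation elongation factor gene, start 9 bases apart. Eef1b2 was at 198, 244 and 54.5 FPKM in the 3 libraries and so differed by -1.84, while Ndufs1 differed by 1.56. Ndufs6, at 142, 259 and 442 FPKM, had the mitochondrial ribosomal protein gene Mrpl36 as its neighbour, at 53.4, 81.6 and 25.4 FPKM. Ndufb5, at 173, 280.5 and 463 FPKM, likewise started 93 bases from Mrpl47, at 26.0, 34.0 and 19.7 FPKM. Sdhd and Timm8b, a gene of the mitochondrial import machinery, ran together, and Timm8b was at 140.3, 212 and 171 FPKM, highest at E13.5 like Sdhd.

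Other genes of the pathway were described for comparison. The 45 assembly factors, which build the complexes without staying in them, had a median level of 14.9, 19.5 and 19.4 FPKM in the 3 libraries. Their median difference between E10.5 and the adult was 0.13, or 0.52 relative to the median mRNA locus. By at least 1, 3 were higher and 2 lower, where 14.8% and 27.3% of the mRNA loci were. The 3 higher ones were Uqcc1, a complex III factor, at 16.0, 24.5 and 46.3 FPKM, Cox20 at 25.2, 43.5 and 58.1 FPKM and Ecsit at 20.7, 30.1 and 47.2 FPKM. The 2 lower ones were Cox18, a complex IV factor, at 19.4, 12.2 and 5.40 FPKM and Ndufaf8 at 9.98, 18.0 and 4.30 FPKM. Among the assembly factors, 28 of 45 were highest at E13.5, where 16 of the 73 subunit genes and 46.7% of the mRNA loci were. The 14 genes of protein import, of chaperones and of the outer membrane channels had a median difference of -0.03, or 0.37 relative to the median mRNA locus. Of these, 0 were higher and 1, Tomm40, was lower by at least 1.

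Genes of electron carriers and of ATP export were measured for 7 of the 8 listed names. Their median difference was 1.30, or 1.70 relative to the median mRNA locus. By at least 1, 4 were higher and 1 lower, where 14.8% and 27.3% of the mRNA loci were. Etfdh, which feeds electrons from fatty acid oxidation into the chain, was at 60.4, 82.0 and 394 FPKM. Etfa, a subunit of the flavoprotein that supplies it, was at 31.9, 17.5 and 80.0 FPKM, and the locus of Etfb, which also holds Cldnd2, at 137, 164 and 353 FPKM. Cycs, the somatic cytochrome c, was at 6.21, 7.96 and 17.6 FPKM. Copies elsewhere in the genome were searched for the subunit genes only, and not for Cycs or the other comparison genes. The lower gene was Slc25a5, an ADP/ATP carrier, at 300.3, 348 and 114 FPKM. The heart and muscle carrier Slc25a4 is the listed name for which no locus was matched, and it was not analysed here. Atpif1, the inhibitor of ATP synthase, peaked at E13.5, at 521, 1166 and 395 FPKM. The 13 subunits made from mitochondrial DNA could not be set beside the nuclear ones. The annotation has 1 unnamed locus over the mitochondrial genome, from position 2 to 16297, at 1167 FPKM at E10.5 and listed at 0 in the other 2 libraries.

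Marker genes of heart muscle cells were expressed in all 3 libraries, and the list holds no gene chosen to tell ventricle from atrium. The 6 cardiomyocyte genes summed to 2707, 4912 and 11069.8 FPKM, and 5 of them were higher by at least 1 in the adult than at E10.5 (14.8% of the mRNA loci). From E10.5 to E13.5, 3 of these 6 were higher by any amount, against 70 of the 73 subunit genes and 62.9% of the mRNA loci. The other 3, Ryr2, Myom1 and Actn2, differed by -1.90, -0.23 and -0.02. In that interval the median difference was 0.68 for subunit genes at or under 600 bases and 0.55 for longer ones. The part of transcript length or RNA quality in this contrast was not tested. Between E10.5 and the adult, 14.8% of the mRNA loci were higher and 27.3% lower by at least 1. By that limit, all 4 macrophage genes were higher (4.77, 26.7 and 93.1 FPKM in sum). Of the 4 erythroid genes, 3 were lower (1108, 888 and 22.1 FPKM in sum). Most of the embryonic erythroid sum was the globin gene Hba-x, at 1057, 827 and 0.0946 FPKM. Alas2, the erythroid gene that was not lower, was at 18.2, 34.1 and 19.6 FPKM. All 4 proliferation genes were lower (243, 285 and 3.27 FPKM in sum). The 4 endothelial genes summed to 176, 109.6 and 201 FPKM, with 0 past the limit of 1, and the 4 fibroblast genes to 102.5, 231 and 411 FPKM, with 1, Dcn, higher. Of the 4 fast skeletal muscle genes, 2 were lower (6.46, 4.80 and 0.612 FPKM in sum), with Myh1 and Myh4 under 0.1 in each library. Of the 4 brown fat genes, which summed to 1.29, 1.99 and 29.3 FPKM, Ucp1 was at or under 0.0415 FPKM in each library, while Cidea, the only one higher by at least 1, was at 0.974, 1.12 and 28.2 FPKM. The part of a changing mixture of cells in the differences of the subunit genes was not tested.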

How the data were processed

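The data are RNA-seq values of heart ventricle of C57BL/6 mice (C57BL/6 J in the study's methods), with 1 library per stage (E10.5, E13.5, and 8 weeks of age as the adult stage). Per the labels, total RNA was extracted with a Nacalai RNA reagent and made into libraries with the TruSeq Stranded Total RNA kit. Per the submitters' processing notes and the study's methods, reads were aligned to mm10 with TopHat (Tophat2 in the methods) and Bowtie and assembled with Cufflinks, with and without known transcripts. The authors deposited FPKM values of the assembled loci in each library, along with exon coordinates of the assembled transcripts. Further tool versions, options and the handling of reads that map to several places are not given in the sources used here, and such handling bears on genes with copies. mm10 and GRCm38 are the same assembly, so the deposited coordinates were used with GRCm38.p6 sequence and RefSeq annotation.

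Samples were grouped by their titles. Loci were taken by gene name, and a locus was counted as an mRNA locus if a transcript matched a RefSeq protein-coding transcript (20117 loci, of which 12569 reached 1 FPKM in at least 1 library). Of the 73 subunit genes, 72 passed that filter, and Atp5l, which did not, was kept. Differences were computed on the log2(FPKM + 1) scale and counted at a limit of 1. That scale understates the change of low genes. With 1 library per stage, no test was made and no p-value is given, and counts are set beside the share of all mRNA loci past the same limit. The rule for the members uses names alone, but the members and lists were chosen with earlier results of these data known. Values in all 3 libraries were given for complexes II, III and IV, for the core of complex I and the F1, Atp5o and Atp5g genes of complex V, for the 3 largest and 3 smallest differences among the other genes of complexes I and V, and for genes under 1 FPKM or moving against the median of their complex. The values of 1 of these genes are not reported here. Other genes were named after their values were seen. Assembly factors listed under newer names were matched through RefSeq synonyms.

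Depth was estimated from the most frequent lowest value of FPKM times length over single-exon loci and is approximate. Copies were searched as shared 32-base words, and a copy was a place holding at least 20% of the words of a transcript. The promoter motifs were chosen with the levels known, and the NRF1 letters were shortened by 1 base after a longer form had been counted, which raised the number of matching windows among the subunit genes and among all genes. Divergent neighbours had starts within 1000 bases. Other settings were 3 rescalings, pseudocounts of 0.1 and 5, filters at 1 and 10 FPKM, a limit of 2, and sets of genes without doubtful names or with little shared sequence. The counting of differences was tested on simulated data. Python 3.11.15, numpy 2.4.6, pandas 2.3.3, scipy 1.17.1 and matplotlib 3.10.9 were used.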

Additional observations from a re-analysis of the deposited data

How the results depend on the processing

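Of 405 recalculated values, 108 could not change, since the setting removed no gene of the set. Of the other 297, 284 kept their direction and stayed within 1.5-fold of the value reported (0.58 on the log2 scale for a median difference), 13 moved further and 0 reversed. All 129 recalculated median differences that could change kept within that limit, which is wide beside the smaller of them. The median difference of all subunit genes between E10.5 and the adult ranged from 0.94 to 1.52, that of complex I from 1.31 to 1.77 and that of complex V from 0.65 to 1.07. The medians of the shorter intervals depended more on the scaling. From E13.5 to the adult, that of all subunit genes, 0.60 as reported, ranged from 0.54 to 1.13, that of complex V (0.23) from 0.11 to 0.79 and that of complex II (0.42) from 0.41 to 0.99. From E10.5 to E13.5, that of all subunit genes (0.58) ranged from 0.27 to 0.60 and that of complex III (0.40) from 0.08 to 0.40. The count of genes higher by at least 1 in the adult than at E13.5, 9 with the deposited scaling, was 41 with median-of-ratios factors, 41 with such factors made without globin and mitochondrial loci, 33 with libraries brought to 1 sum, 42 relative to the median mRNA locus and 0 at a limit of 2. The count higher at E13.5 than at E10.5, 7 as reported, was 3, 3, 2 and 3 under the same 4 settings and 1 at a limit of 2, while 1 gene was lower with a pseudocount of 0.1 FPKM. At a limit of 2, 5 genes were higher in the adult than at E10.5. With members at 10 FPKM or more in every library only, the median of complex V at E13.5 was 411 FPKM instead of 263. Leaving out joined loci changed nothing, since no subunit gene is in one. The restriction to genes with little shared sequence and the sum of gene and copy were added after seeing the data. No paired analysis was possible because only 1 library per stage exists here. For the same reason there was no replicate to leave out, and variation between animals, sequencing runs and dissections cannot be told apart from stage. The depth limits the lowest genes, such as Ndufa4l2, Atp5g2 and Atp5l, and not the median subunit gene. Levels of genes with near-identical copies are limited by how reads were assigned.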
